A study of Homo sapiens with 10 samples.

Results

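The genes described here encode the machinery by which proteins enter, fold in and are checked in the endoplasmic reticulum (ER), together with the sensors of the unfolded protein response. A list of 41 genes was matched by exact symbol in each deposited table, and all 41 were found among the 18034 gene IDs of the series. The list was drawn by function, not by a threshold on these values, though with earlier results of these data known. The 10 mRNA sequencing libraries came from HCT116, a human colorectal carcinoma line long kept in culture, and form 5 groups of 2. The inhibitor experiment holds EPZ, cells given EPZ-5676 (pinometostat, an inhibitor of the histone H3 methyltransferase DOT1L) at 10 µM for 72 h, and DMSO. The knockdown experiment holds K56A, WT and EV. All 3 lines carry a short hairpin RNA against CDK9, the kinase that as part of P-TEFb releases paused RNA polymerase II, and none was treated. In K56A and WT the protein was put back, with lysine 56 changed to alanine in K56A and unchanged in WT. The labels do not expand EV, and they do not say whether a line is a clone, which promoter drives the CDK9 put back or whether the libraries of a group come from separate cultures. The spread behind each p-value may therefore be technical.

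Secretory and membrane proteins are threaded into the ER through the SEC61 channel, assisted by the TRAP complex (SSR genes) and TRAM1, while signal peptidase removes the signal peptide and oligosaccharyltransferase attaches N-glycans. Inside, HSP70 and HSP90 chaperones, lectin chaperones and protein disulfide isomerases fold the chain, and chains that fail are sent back to the cytosol for degradation. When unfolded proteins accumulate, 3 sensors respond: IRE1 (ERN1) and ATF6 raise the genes of this machinery, IRE1 by cutting a short segment out of the XBP1 mRNA, and PERK (EIF2AK3) slows translation and brings up the factor ATF4. Epithelial cells of the colon rely on this system for their secreted and surface proteins.

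The segment that IRE1 removes is 26 bases long, so transcript sequences show which annotated forms hold it. The 2 sequences below come from GENCODE release 29 transcripts of XBP1 (chromosome 22, minus strand) and are shown because they separate the forms measured further on. Capitals mark the 26 bases, which XBP1-201 holds and XBP1-202 lacks.
XBP1-201: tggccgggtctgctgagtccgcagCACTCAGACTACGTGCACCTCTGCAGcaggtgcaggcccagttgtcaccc
XBP1-202: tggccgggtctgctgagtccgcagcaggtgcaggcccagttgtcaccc

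Promoters were searched on both strands, from 250 bases before to 50 after the start site, for the elements through which ATF6 and XBP1 act. RefSeq promoters (GRCh38.p14) were matched for 37 of the 41 genes. The ER stress response element was spelled as CCAAT, 9 bases of any kind, then CCACG. It stood in 7 of the 37 genes (18.9%), CALR, CANX, CRELD2, HSP90B1, HSPA5, PDIA6 and XBP1, against 0.0916% of all 27305 genes with a promoter. Element II, ATTGG and CCACG with 1 base between them, stood in HERPUD1, HYOU1 and SDF2L1 (8.11%, against 0.0696% of all genes). The unfolded protein response element TGACGTGG stood in HYOU1, SSR3 and SSR4 (8.11%, against 0.927%), and in HYOU1 it overlaps a copy of element II. The windows below, on the strand of each gene, show the elements in capitals for genes whose RNA is described further on, where HSPA5 holds a forward copy and CALR a copy in the reverse orientation. A match is a description of letters and not evidence that a factor binds there.
HSPA5, chr9:125241383-125241417, minus strand: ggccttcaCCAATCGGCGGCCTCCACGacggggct
HSP90B1, chr12:103930208-103930242, plus strand: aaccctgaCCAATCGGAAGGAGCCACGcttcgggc
CALR, chr19:12938376-12938410, plus strand: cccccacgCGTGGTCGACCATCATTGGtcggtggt
XBP1, chr22:28800595-28800629, minus strand: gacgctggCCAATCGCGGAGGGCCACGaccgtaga
HERPUD1, chr16:56932017-56932043, plus strand: ggacgccgATTGGGCCACGttgggaga
SDF2L1, chr22:21642106-21642132, plus strand: ctcggaagCGTGGACCAATcaaaaccc

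Before the ER genes, the libraries were examined. CDK9 averaged 2556 ± 78.3 FPKM in K56A and 3018 ± 59.8 FPKM in WT, against 17.9 ± 2.19 FPKM in EV (SD, n = 2 each). DOT1L also differed between the lines, with 718 FPKM in K56A and 573 FPKM in WT, against 333 FPKM in EV (limma, adjusted p = 1.06e-05 and 0.000166), and its part in any ER difference was not tested. In the inhibitor experiment CDK9 averaged 40.2 FPKM in EPZ and 40.7 FPKM in DMSO, and DOT1L, whose activity and not RNA is the target, averaged 10.5 FPKM in EPZ and 12.6 FPKM in DMSO (adjusted p = 0.980 and 0.756). CDK9 in K56A and WT thus stood far above its level in DMSO, and not near it. DOT1L stood far above DMSO in all 3 knockdown lines, EV included. The experiments have separate tables, and the reason for these levels was not tested. Of the 6 genes in the epithelial list, CDH1, EPCAM, KRT8 and KRT18 were above 1 FPKM in every group, whereas VIL1 and CDX1 were in none. No leukocyte or endothelial marker was above 1 FPKM. The epithelial list summed to 1304 to 1310 FPKM in K56A, 1253 FPKM in both WT libraries, and 1317 to 1347 FPKM in EV. Of the fibroblast list only COL1A1 was above 1 FPKM, with a list sum of 19.8 to 23.1 FPKM in EPZ, 19.3 to 20.1 FPKM in DMSO, 34.5 to 36.2 FPKM in K56A, 33.1 to 34.1 FPKM in WT and 27.4 to 29.9 FPKM in EV. The nuclear-retained RNAs MALAT1 and NEAT1, read as a sign of RNA quality, carried a list sum of 159 to 171 FPKM in EPZ, 144 to 176 FPKM in DMSO, 568 to 573 FPKM in K56A, 551 to 563 FPKM in WT and 498 to 500.0 FPKM in EV. In the plasma cell list, a cell type rich in ER proteins, only SDC1 was above 1 FPKM, with a list sum of 21.9 to 26.6 FPKM in EPZ, 28.7 to 34.7 FPKM in DMSO, 40.9 to 42.3 FPKM in K56A, 36.4 to 38.0 FPKM in WT and 44.1 to 49.6 FPKM in EV. Transcripts of the mitochondrial genome took 25.4% and 25.6% of FPKM in K56A, 27.7% and 27.2% in WT, and 27.9% and 27.6% in EV, so the total against which FPKM is scaled differed between the lines. In the epithelial and plasma cell lists both EV libraries lay above both other lines, and in the fibroblast and nuclear RNA lists below them. In the epithelial list K56A lay nearer to EV than to WT. Many ER genes also set EV apart from both lines, and the part of these lists in the ER differences was not tested. DMSO replicate 1 stood apart from DMSO replicate 2: the median absolute log2 difference between replicates over the ER genes was 0.20 in DMSO, against 0.11 in EPZ and 0.04 to 0.05 in the 3 knockdown lines.

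The ER genes were well expressed. Their median level was 84.8 FPKM in EPZ and 81.6 FPKM in DMSO, and 93.2 FPKM in K56A, 92.9 FPKM in WT and 105.9 FPKM in EV. Together they took 1.13% and 1.10% of FPKM in EPZ and 1.07% and 1.12% in DMSO, and 1.70% and 1.73% in K56A, 1.60% and 1.64% in WT and 1.71% and 1.72% in EV. The chaperones HSP90B1, CALR and HSPA5 led the list in every group, and ERN1 was lowest, at 4.41 FPKM in EPZ, 4.87 FPKM in DMSO, 5.38 FPKM in K56A, 5.46 FPKM in WT and 5.30 FPKM in EV. The order of levels was steep, with 20 genes of at least 100 FPKM and 6 under 20 FPKM in K56A and in WT.

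**Figure D1:**
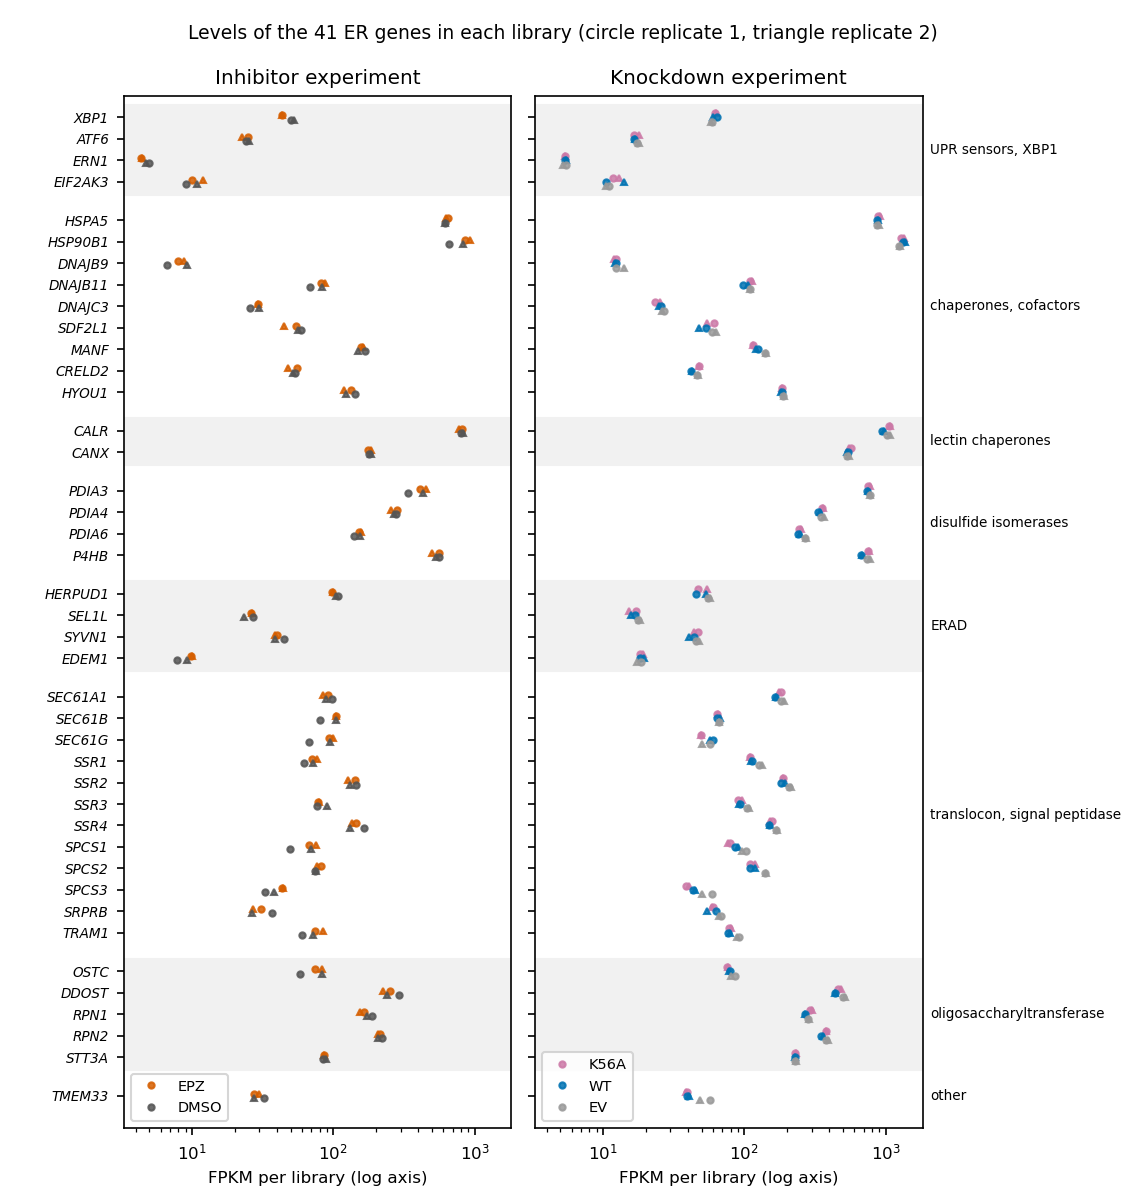
FPKM of the 41 ER genes in each library on a log axis, with the inhibitor experiment on the left and the knockdown experiment on the right, grouped by role; circles are replicate 1 and triangles replicate 2. HSP90B1, CALR and HSPA5 lie highest and ERN1 lowest in both experiments, and the symbols of the groups lie close together for most genes.

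Inhibition of DOT1L addresses whether its loss of activity alters transcript levels. Among the 41 ER genes, none passed adjusted p = 0.05 in EPZ versus DMSO in either direction (limma on log2(FPKM + 0.5), two-sided, Benjamini-Hochberg adjustment over 13130 genes). Over all genes tested, 0% passed as higher and 0.00762% as lower. At an unadjusted p under 0.05 there was 1 ER gene, SPCS3, against 5.83% of all genes. The libraries of EPZ lay wholly above those of DMSO for 6 ER genes and wholly below for 5, where 18.6% and 18.8% of all genes did. The median log2 fold change of the ER genes was -0.01, against 0.00 over all genes.

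The effector XBP1, whose mRNA IRE1 splices, had 43.5 and 43.3 FPKM in EPZ, against 50.5 and 52.6 FPKM in DMSO. The EPZ libraries lay below both DMSO libraries, and the difference was -0.25 ± 0.11 on the log2 scale (SE), with an adjusted p of 0.756 by limma. ERN1 had 4.38 and 4.44 FPKM in EPZ, against 4.97 and 4.76 FPKM in DMSO (-0.13 ± 0.16, adjusted p = 0.842). For the other sensors the groups overlapped. ATF6 had 24.8 and 22.5 FPKM in EPZ and 24.3 and 25.4 FPKM in DMSO, while EIF2AK3 had 10.0 and 12.0 FPKM in EPZ and 9.14 and 10.9 FPKM in DMSO. No sensor passed the test.

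HSPA5, the HSP70 chaperone of the ER (also known as BiP), had 647 and 625 FPKM in EPZ, against 618 and 616 FPKM in DMSO, a log2 fold change of 0.04 ± 0.09. HSP90B1, the ER member of the HSP90 family, had 855 and 935 FPKM in EPZ, against 664 and 835 FPKM in DMSO (0.26 ± 0.12, adjusted p = 0.756). Its DMSO libraries differed more from each other than DMSO replicate 2 did from EPZ replicate 1. The plot of EPZ and DMSO values shows the low circle of DMSO replicate 1 for HSP90B1. Among other targets of the response, SDF2L1, a cofactor of HSPA5, had 54.6 and 44.7 FPKM in EPZ and 58.86 and 56.02 FPKM in DMSO. HERPUD1, which organises degradation at the ER membrane, had 98.6 and 99.7 FPKM in EPZ, below the 108 and 105 FPKM of DMSO (-0.11 ± 0.10, adjusted p = 0.796, and 0.034 over protein coding transcripts alone). Both EPZ libraries of SDF2L1 and of HERPUD1 lay below both DMSO libraries. DNAJB9, a J-domain partner of HSPA5, had 8.03 and 8.84 FPKM in EPZ, within the 6.67 and 9.24 FPKM of DMSO. EDEM1, which takes misfolded glycoproteins towards degradation, had 9.79 and 10.1 FPKM in EPZ, against 7.80 and 9.29 FPKM in DMSO (0.21 ± 0.15, adjusted p = 0.757). None of these genes passed, and the direction was not shared between them.

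In the lectin chaperones and disulfide isomerases no gene's groups were separate. CALR, which holds glycoproteins while they fold, had 817 and 778 FPKM in EPZ, against 806 and 826 FPKM in DMSO. PDIA3, the isomerase that works with CALR and CANX, had 414 and 456 FPKM in EPZ, against 339 and 431 FPKM in DMSO (0.18 ± 0.13, adjusted p = 0.757), and PDIA3 gave -0.11 over its protein coding transcripts alone. SPCS3, a subunit of signal peptidase and the gene with the smallest p among the 41, had 43.5 and 44.3 FPKM in EPZ, against 32.9 and 38.3 FPKM in DMSO (0.30 ± 0.12, adjusted p = 0.756). In oligosaccharyltransferase, RPN1 had 166 and 156 FPKM in EPZ, below the 188 and 172 FPKM of DMSO (-0.16 ± 0.10, adjusted p = 0.756), whereas the groups of the other 4 subunits overlapped. SEC61A1, the pore of the channel, had 91.8 and 84.2 FPKM in EPZ, against 97.5 and 88.7 FPKM in DMSO. The genes that passed in the knockdown lines were also looked up here. MANF had 156 and 163 FPKM in EPZ and 167 and 150 FPKM in DMSO, SPCS1 had 67.3 and 76.1 FPKM in EPZ and 49.8 and 69.9 FPKM in DMSO, TMEM33 had 27.4 and 30.1 FPKM in EPZ and 32.6 and 27.4 FPKM in DMSO, and DDOST had 252 and 225 FPKM in EPZ and 291 and 242 FPKM in DMSO. The groups overlapped for all 4.

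The outcome depended on the DMSO library kept. Without DMSO replicate 2, 5 ER genes passed as higher in EPZ, namely HSP90B1, OSTC, SEC61G, SPCS1 and TRAM1, as did 912 of 13000 genes in all. With DMSO replicate 1 left out in its place, none did. For SPCS1 the log2 fold change was 0.52 ± 0.15 without DMSO replicate 2 and 0.03 ± 0.15 without DMSO replicate 1. For HSP90B1 it was 0.43 ± 0.12 without DMSO replicate 2 and 0.10 ± 0.12 without DMSO replicate 1. The lone DMSO library was assumed in these fits to vary as the EPZ libraries did.

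**Figure D2:**
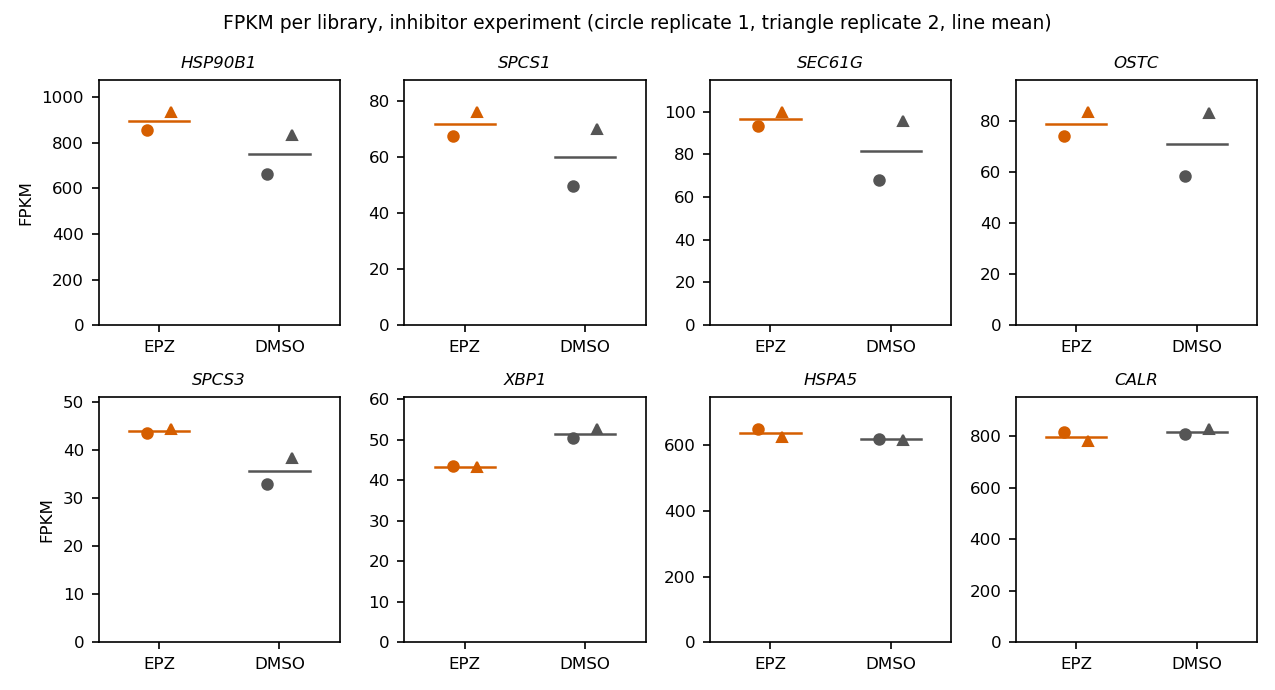
FPKM of 8 ER genes in each EPZ and DMSO library (circle, replicate 1; triangle, replicate 2; line, mean of 2). For HSP90B1, SPCS1, SEC61G and OSTC the circle of DMSO lies below the other 3 libraries, and for XBP1 both EPZ libraries lie below both DMSO libraries.

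The knockdown lines address what CDK9 put back, or its K56A form, does to transcript levels. The 6 libraries were fitted together over 11566 genes, of which 39 were ER genes. Both WT versus EV and K56A versus EV use the same EV libraries, so a deviation of EV enters both. In K56A versus EV, 3 ER genes fell and none rose (7.69% of 39 as lower), against 0.597% of all genes called lower and 0.190% called higher. They were MANF, SPCS1 and TMEM33. At an unadjusted p under 0.05 there were 14 ER genes (35.9%, against 15.1% of all genes). K56A lay wholly below EV for 23 ER genes (59.0%, against 17.9% of all genes) and wholly above for 4 (10.3%, against 27.6%). The median log2 fold change was -0.08, against 0.03 over all genes tested, and the range ran from -0.45 to 0.09. The count of 3 became 6 with median ratio scaling and 0 where only the K56A and EV libraries were fitted. Over all genes, 69 of 11566 were lower as reported, 94 of 11566 with that scaling and 19 of 11430 with those libraries alone.

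In WT versus EV, 1 ER gene fell, DDOST, and none rose (2.56% of 39 as lower), against 0.458% of all genes called lower and 0.0778% called higher. At an unadjusted p under 0.05 there were 22 ER genes (56.4%, against 13.5% of all genes). WT lay wholly below EV for 30 ER genes (76.9%, against 20.9%) and wholly above for 3 (7.69%, against 22.6%). Fold changes were below 0 for 33 of the 39 (84.6%, against 47.4% of all genes), with a median of -0.13 against 0.01 over all genes and a range of -0.39 to 0.12. The count of 1 became 6 with a minimum of 5 FPKM and 0 where only the WT and EV libraries were fitted. Over all genes, 53 of 11566 were lower as reported, 122 of 8506 with that minimum and 8 of 11412 with those libraries alone. Bulk RNA cannot tell fewer cells of one state from less RNA per cell.

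**Figure D3:**
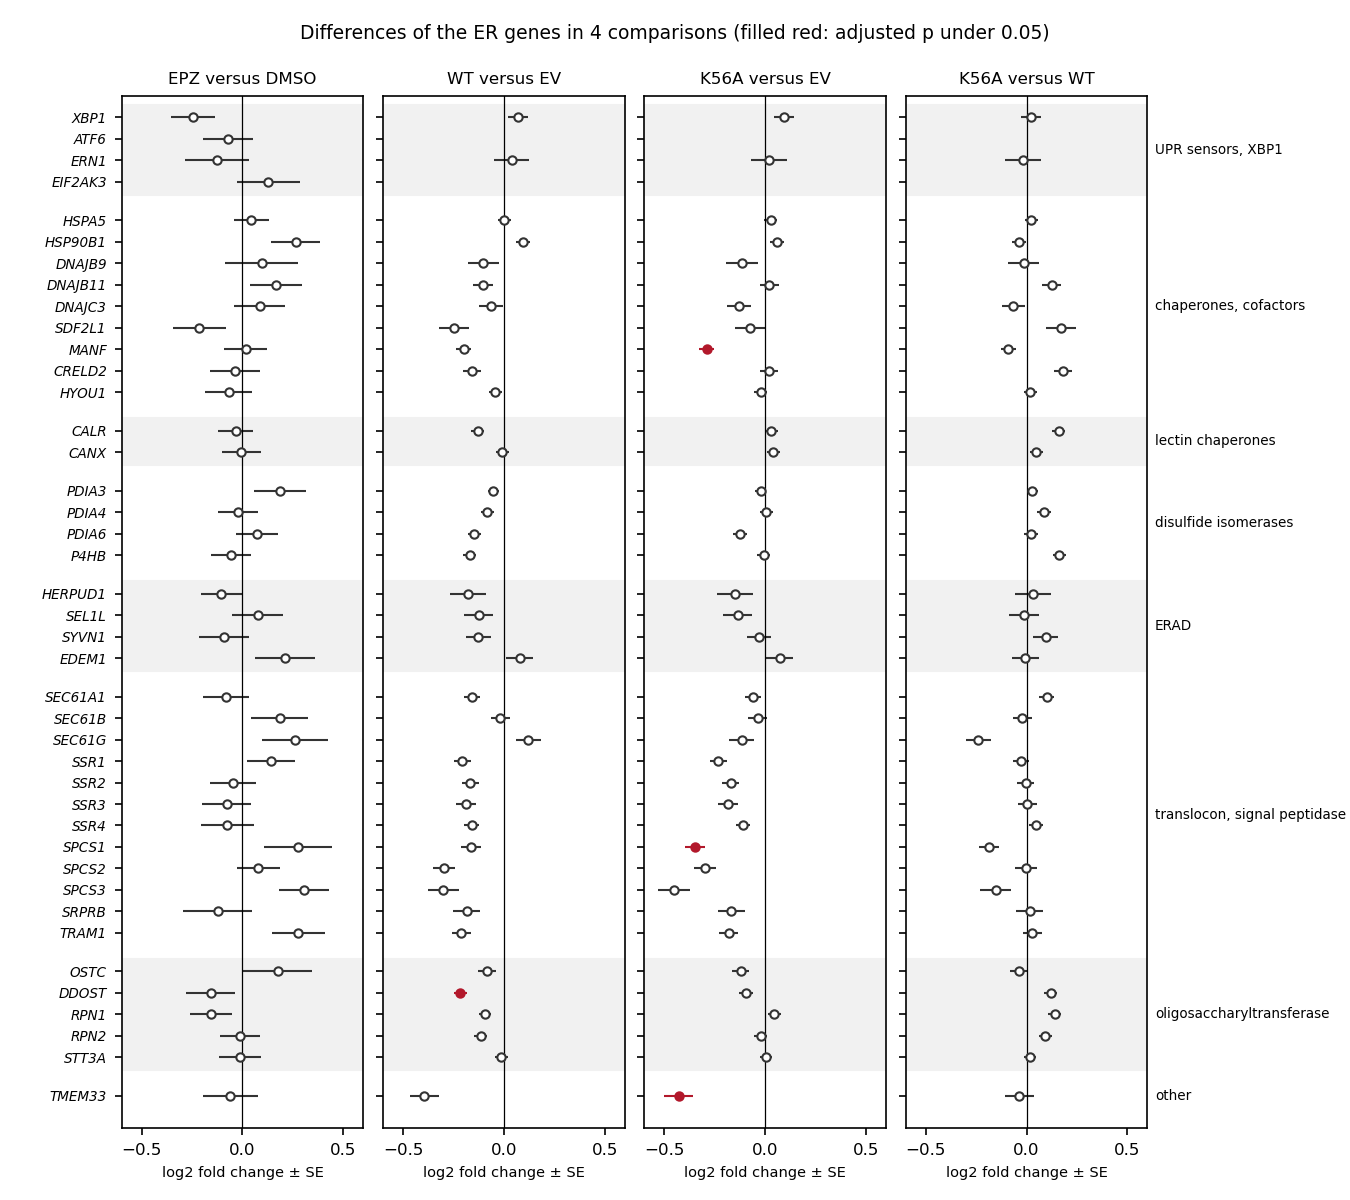
Log2 fold change ± SE of each ER gene, grouped by role, in 4 panels, 1 for each comparison; filled red points have an adjusted p under 0.05 (limma). DDOST passes in WT versus EV, and MANF, SPCS1 and TMEM33 pass in K56A versus EV, with the translocon and signal peptidase genes lying left of 0 in K56A versus EV.

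MANF (GRCh38 chr3:51385291-51389397, plus strand) encodes a small ER protein that binds HSPA5 and is released when ER calcium falls. It had 116 and 115 FPKM in K56A, 126 and 121 FPKM in WT, and 141 and 142 FPKM in EV. Both lines with CDK9 put back lay below EV, and K56A lay lowest. MANF fell in K56A versus EV by 0.29 on the log2 scale (SE 0.04, adjusted p = 0.0199 by limma), while WT versus EV gave -0.20 ± 0.04 (adjusted p = 0.0759).

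SPCS1 (chr3:52705841-52711148, plus strand), a small membrane subunit of signal peptidase, had 79.1 and 76.8 FPKM in K56A, 86.5 and 90.9 FPKM in WT, and 103 and 96.0 FPKM in EV. The 3 lines did not overlap, with K56A lowest and EV highest. SPCS1 fell in K56A versus EV by 0.35 (SE 0.05, adjusted p = 0.0269), and WT versus EV gave -0.16 ± 0.05 (adjusted p = 0.205). In GENCODE release 29, exons of NEK4 on the opposite strand share 2698 of the 5324 exon bases of SPCS1, but none of the 1082 bases of SPCS1-201, which carried 95.3% of SPCS1 FPKM. Exons of GLT8D1, also on the opposite strand, share 397 exon bases of SPCS1 and 192 bases of SPCS1-201. NEK4 averaged 10.4 FPKM in K56A and 10.8 FPKM in EV, and GLT8D1 averaged 45.7 FPKM in K56A and 49.7 FPKM in EV (-0.12 ± 0.05, adjusted p = 0.308). Since the strand setting is not given, reads of SPCS1 and GLT8D1 cannot be told apart where they overlap.

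TMEM33 (chr4:41935129-41960803, plus strand), a multi-pass membrane protein of the ER, had 39.1 and 39.0 FPKM in K56A, 39.5 and 40.5 FPKM in WT, and 56.9 and 48.8 FPKM in EV. K56A and WT were close to each other and both below EV, whose replicates were the most spread. TMEM33 fell in K56A versus EV by 0.43 (SE 0.07, adjusted p = 0.0459), and in WT versus EV the value was -0.39 ± 0.07 (adjusted p = 0.0696). Its RNA was split over TMEM33-208, TMEM33-203 and TMEM33-201, with 40.6%, 23.7% and 22.5% of its FPKM, the last annotated as subject to nonsense-mediated decay.

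DDOST (chr1:20651767-20661544, minus strand), a core subunit of oligosaccharyltransferase, had 464 and 486 FPKM in K56A, 437 and 437 FPKM in WT, and 501 and 514 FPKM in EV. WT was lowest, and K56A lay between WT and EV without overlap. DDOST fell in WT versus EV by 0.22 (SE 0.03, adjusted p = 0.0449), while K56A versus EV gave -0.10 ± 0.03 (adjusted p = 0.248). PINK1-AS, on the same strand, shares 417 of the 1963 bases of DDOST-205, the leading transcript, and averaged 9.04 FPKM in WT and 10.7 FPKM in EV. All 4 calls lay near the threshold. No ER gene passed in K56A versus EV without EV replicate 1, without either K56A library or without either WT library. With EV replicate 1 left out, the adjusted p of MANF was 0.0700 and that of SPCS1 and TMEM33 was 0.0971. Without EV replicate 2, TMEM33 and SPCS3 passed at 0.0290 and SPCS1 at 0.0498, while MANF had 0.0679. DDOST passed in WT versus EV under none of the fits that left out a library.

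**Figure D4:**
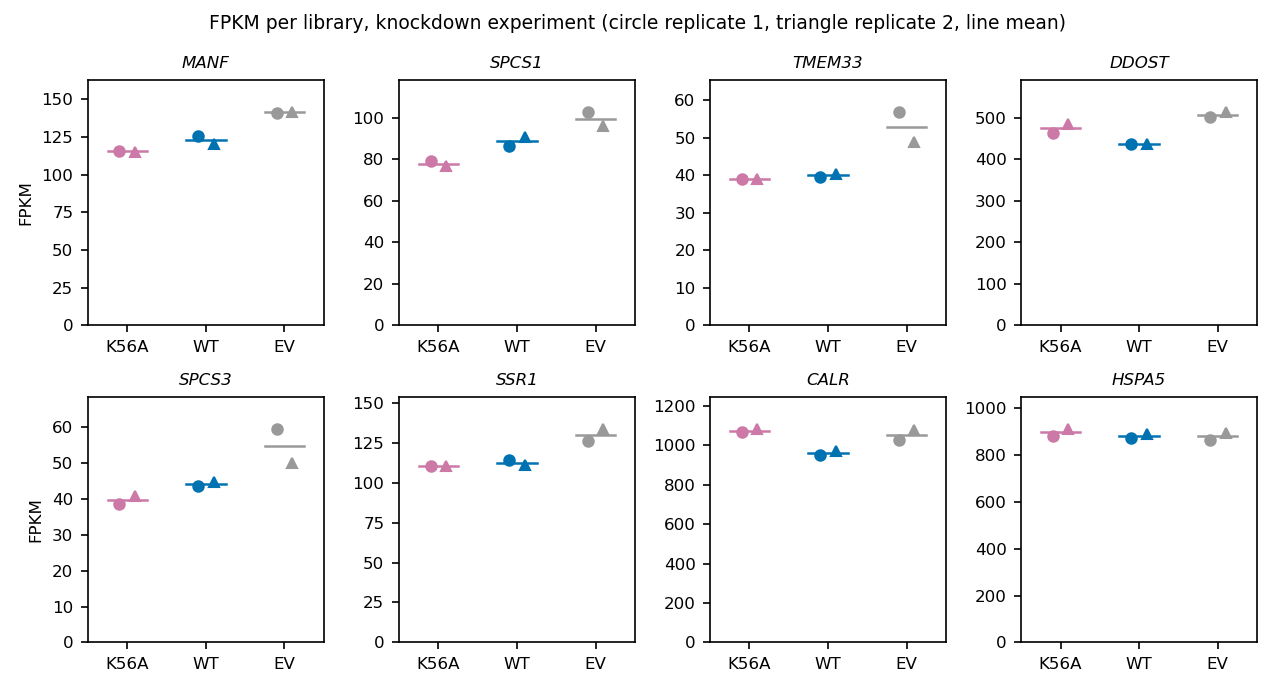
FPKM of 8 ER genes in each K56A, WT and EV library (circle, replicate 1; triangle, replicate 2; line, mean of 2; axes start at 0). MANF, SPCS1, TMEM33, SPCS3 and SSR1 lie highest in EV, DDOST and CALR lie lowest in WT, and HSPA5 overlaps in all 3 lines.

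The sensors of the response showed no such order. XBP1 had 62.2 and 63.4 FPKM in K56A, 64.1 and 59.7 FPKM in WT, and 59.3 and 58.3 FPKM in EV. Both lines with CDK9 put back lay slightly above EV, by 0.09 ± 0.05 in K56A (adjusted p = 0.407) and 0.07 ± 0.05 in WT (adjusted p = 0.583). ERN1 had 5.35 and 5.41 FPKM in K56A, 5.41 and 5.51 FPKM in WT, and 5.43 and 5.17 FPKM in EV, with the groups overlapping. ATF6 and EIF2AK3 could not enter the joint fit, since more than 5% of their FPKM lay in transcripts listed in only 1 of the knockdown tables, and each was tested within its own table. In the table of K56A, ATF6 had 17.9 and 18.46 FPKM in K56A, against 17.8 and 18.45 FPKM in EV (0.00 ± 0.07). In the table of WT, ATF6 had 17.7 and 17.9 FPKM in WT, against 17.4 and 18.0 FPKM in EV (0.01 ± 0.07). The groups overlapped in both tables. ATF6-220, annotated as subject to nonsense-mediated decay, carried 47.3% of ATF6 FPKM in the knockdown lines and 45.9% in the inhibitor experiment. EIF2AK3 had 14.1 and 12.9 FPKM in K56A, against 11.1 and 11.7 FPKM in EV of the K56A table (0.23 ± 0.08, adjusted p = 0.304). Both K56A libraries lay above both EV libraries there, with an unadjusted p of 0.0247 by limma. In the table of WT, EIF2AK3 had 10.6 and 14.2 FPKM in WT, against 11.1 and 10.6 FPKM in EV (0.17 ± 0.13, adjusted p = 0.682), and the groups overlapped.

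The shares of the XBP1 forms were then read, which are not levels. Transcripts without the 26 bases made up 25.8% and 22.2% of the coding XBP1 FPKM in EPZ, against 42.8% and 25.5% in DMSO. In the knockdown lines the share was 24.4% and 24.4% in K56A, 28.0% and 23.2% in WT, and 20.7% and 23.5% in EV. Shares overlapped in EPZ versus DMSO and in WT versus EV, and the highest came from DMSO replicate 1. K56A lay above EV by less than the EV libraries differed from each other. These are transcript estimates and not junction counts: XBP1-204, a coding form with the 26 bases, was given 15.5 FPKM in WT replicate 1 and 2.07 FPKM in WT replicate 2, while XBP1-201 was given 25.2 and 38.9 FPKM. XBP1-202, the form without the 26 bases, is annotated with 1131 bases and XBP1-201 with 1850. The forms thus differ by more than the segment, and the share may not reflect the segment alone.

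**Figure D5:**
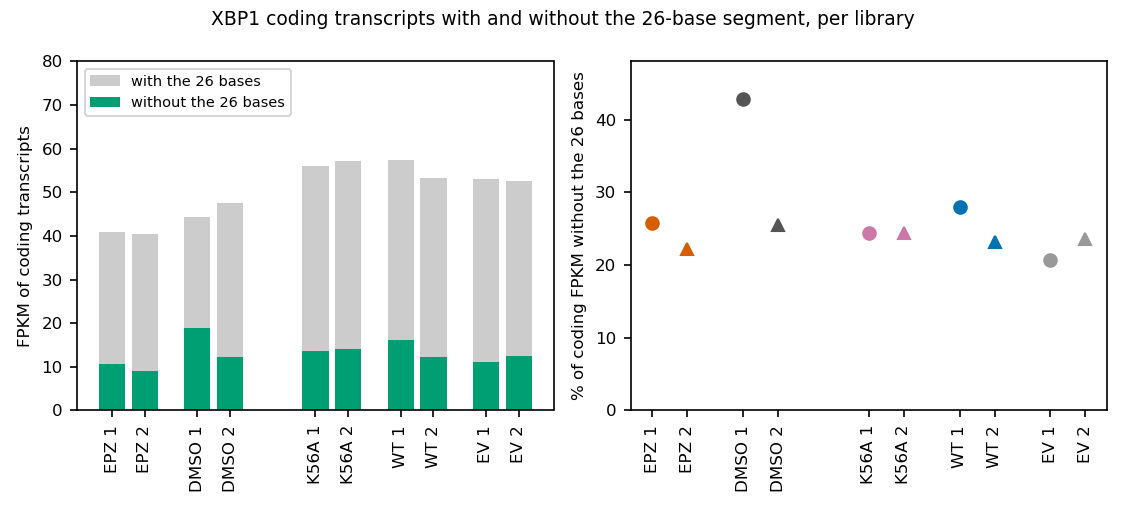
Left, FPKM of coding XBP1 transcripts in each library, divided into those without the 26 bases (green) and with them (grey). Right, the percent without them (circle, replicate 1; triangle, replicate 2), which is 42.8% in DMSO replicate 1 and between 20.7% and 28.0% in the other 9 libraries.

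The chaperones divided by gene. HSPA5 had 882 and 910 FPKM in K56A, 874 and 888 FPKM in WT, and 864 and 896 FPKM in EV, and the groups overlapped (0.03 ± 0.03 in K56A versus EV, 0.00 ± 0.03 in WT versus EV). HSP90B1 had 1277 and 1348 FPKM in K56A, 1324 and 1370 FPKM in WT, and 1248 and 1274 FPKM in EV. HSP90B1 and XBP1 were the 2 of the 39 genes whose K56A libraries and WT libraries all lay above EV. For HSP90B1 the difference was 0.06 ± 0.03 in K56A (adjusted p = 0.472) and 0.10 ± 0.03 in WT (adjusted p = 0.275). Part of the WT difference lay in HSP90B1-208, which is annotated as a retained intron and not as coding. HSP90B1-208 had 151 and 189 FPKM in WT, against 102 and 124 FPKM in EV (authors' log2 fold change 0.58, adjusted p = 0.0161 by DESeq2). The smaller cofactors leaned the other way in WT. SDF2L1 had 61.0 and 54.2 FPKM in K56A, 54.0 and 48.2 FPKM in WT, and 58.7 and 62.6 FPKM in EV (WT versus EV -0.25 ± 0.08, adjusted p = 0.208). CRELD2, a protein secreted under ER stress, had 47.7 and 47.5 FPKM in K56A, 41.7 and 42.3 FPKM in WT, and 46.6 and 47.3 FPKM in EV. The 3 lines of CRELD2 did not overlap, with K56A just above EV (0.02 ± 0.04, and -0.0007 with median ratio scaling) and WT below it (-0.16 ± 0.04, adjusted p = 0.182). DNAJB9 had 12.3 and 12.0 FPKM in K56A, 12.4 and 12.2 FPKM in WT, and 12.4 and 14.1 FPKM in EV. Over the 9 chaperones and cofactors the median log2 fold change was -0.02 in K56A versus EV and -0.10 in WT versus EV.

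Of the 2 lectin chaperones and 4 disulfide isomerases, PDIA3 and PDIA6 had both K56A libraries below both EV libraries, and all but CANX had both WT libraries below them. No gene of these groups passed. Over all genes, K56A lay wholly below EV for 17.9% and WT for 20.9%. CALR had 1066 and 1081 FPKM in K56A, 950 and 972 FPKM in WT, and 1026 and 1077 FPKM in EV. WT was separate from the other lines, which overlapped. P4HB, the beta subunit of prolyl 4-hydroxylase and a major disulfide isomerase, had 754 and 763 FPKM in K56A, 671 and 685 FPKM in WT, and 743 and 781 FPKM in EV. WT versus EV gave -0.17 ± 0.03 (adjusted p = 0.0776), and K56A versus EV gave -0.01 ± 0.03 (adjusted p = 0.942). PDIA6, another isomerase, had 245 and 251 FPKM in K56A and 240 and 248 FPKM in WT, below the 269 and 271 FPKM of EV (-0.12 ± 0.03 and -0.15 ± 0.03). The libraries of both lines lay below EV for PDIA6. PDIA3 had 757 and 774 FPKM in K56A and 745 and 755 FPKM in WT, just below the 776 and 778 FPKM of EV. Its leading transcript, PDIA3-202, carries the annotation of nonsense-mediated decay and 77.3% of PDIA3 FPKM, and its copy PDIA3P1 was listed at 10.3 to 13.3 FPKM, so that reads of the pair may have been divided by the authors' counting. CANX, the membrane-bound lectin chaperone, had 566 and 553 FPKM in K56A, 546 and 536 FPKM in WT, and 533 and 555 FPKM in EV.

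All 12 translocon and signal peptidase genes had both K56A libraries below both EV libraries, against 17.9% of all genes. Their median log2 fold change was -0.18, and 1 of them, SPCS1, passed (8.33%, against 0.597% of all genes called lower). In WT versus EV, 10 of the 12 lay wholly below (83.3%, against 20.9%) and 1, SEC61G, wholly above (8.33%, against 22.6%). The median there was also -0.18, and none passed, against 0.458% of all genes called lower. SPCS3, the subunit of signal peptidase that faces the ER lumen, had 38.7 and 40.8 FPKM in K56A, 43.6 and 44.8 FPKM in WT, and 59.36 and 50.04 FPKM in EV. Its fold change was the furthest below 0 among the ER genes in K56A versus EV, at -0.45 ± 0.08, and missed the threshold (adjusted p = 0.0503). SPCS2, the remaining signal peptidase subunit listed, had 110 and 120 FPKM in K56A and 111 and 119 FPKM in WT, against 141 and 142 FPKM in EV (-0.30 ± 0.05 in each comparison, adjusted p = 0.0617 and 0.0742). Its copy SPCS2P4 was listed at 3.27 to 7.87 FPKM. SSR1, the alpha subunit of TRAP, gave -0.23 ± 0.04 in K56A versus EV (adjusted p = 0.0549), and SSR2, SSR3 and SSR4 gave -0.17, -0.18 and -0.11.

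In K56A versus EV the channel itself was less displaced than the median of the 12 genes (-0.18), with SEC61G at -0.12 ± 0.06. In WT versus EV its pore lay near the median of the 12, which was also -0.18. SEC61A1, its pore subunit, had 181 and 176 FPKM in K56A, 164 and 168 FPKM in WT, and 181 and 191 FPKM in EV. WT stood apart (-0.16 ± 0.04 versus EV, adjusted p = 0.137), while K56A versus EV gave -0.06 ± 0.04 (adjusted p = 0.514). SEC61G, its gamma subunit, had 49.5 and 49.3 FPKM in K56A, 59.6 and 57.1 FPKM in WT, and 57.0 and 50.4 FPKM in EV. SEC61G was therefore lowest in K56A and highest in WT. SEC61B gave -0.04 ± 0.05 in K56A versus EV and -0.02 ± 0.05 in WT versus EV.

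In oligosaccharyltransferase all 5 subunits lay wholly below EV in WT, with a median of -0.09, against 2 of 5 in K56A, with a median of -0.02. Of all genes, 20.9% lay wholly below EV in WT and 17.9% in K56A. RPN1, ribophorin I, had 291 and 300 FPKM in K56A, 267 and 269 FPKM in WT, and 284 and 288 FPKM in EV, so that K56A was above EV and WT below it. STT3A, the catalytic subunit, gave 0.00 ± 0.03 in K56A versus EV and -0.01 ± 0.03 in WT versus EV. Among the 4 degradation genes, HERPUD1 had 47.0 and 54.3 FPKM in K56A, 45.5 and 53.6 FPKM in WT, and 55.2 and 56.8 FPKM in EV. Its replicates within K56A and within WT were further apart than either was from EV at its nearest. SYVN1, the ubiquitin ligase of ER degradation, had 47.1 and 43.8 FPKM in K56A, 44.2 and 40.8 FPKM in WT, and 45.2 and 47.6 FPKM in EV. SEL1L, its partner, had 17.2 and 15.4 FPKM in K56A and 16.9 and 15.9 FPKM in WT, below the 17.7 and 18.2 FPKM of EV. EDEM1 had 18.4 and 19.3 FPKM in K56A, 18.4 and 19.5 FPKM in WT, and 18.5 and 17.3 FPKM in EV. No degradation gene passed in either comparison.

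Setting K56A directly against WT compares the lines that carry the different forms of CDK9. These lines also differed in DOT1L, which was higher in K56A by 0.32 ± 0.04 (718 FPKM in K56A, 573 FPKM in WT, adjusted p = 0.0397), while CDK9 gave -0.24 ± 0.07 (adjusted p = 0.220), so that the form of CDK9 and the level of DOT1L cannot be told apart. No ER gene passed, against 0.0173% of all genes called higher and 0.0432% called lower. At an unadjusted p under 0.05 there were 12 ER genes (30.8%, against 13.0%). K56A lay wholly above WT for 15 ER genes (38.5%, against 26.0%) and wholly below for 7 (17.9%, against 19.5%), with a median of 0.02 against 0.01 over all genes. The smallest p-values belonged to CALR and P4HB, both higher in K56A by 0.16 ± 0.03 (adjusted p = 0.137 each). RPN1 (0.14 ± 0.03, adjusted p = 0.159) and CRELD2 (0.18 ± 0.04, adjusted p = 0.172) followed. SEC61G (-0.24 ± 0.06, adjusted p = 0.191) and SPCS1 (-0.18 ± 0.05, adjusted p = 0.197) led those lower in K56A. Among folding genes, the 2 lectin chaperones and 3 of the 4 disulfide isomerases had K56A wholly above WT, as did 4 of the 5 oligosaccharyltransferase subunits.

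Genes with an ER stress response element of either form were compared with those whose promoter held none, as a description. In K56A versus EV the median log2 fold change was 0.02 over the 10 with an element and -0.12 over the 25 without one that were tested. In WT versus EV the medians were -0.09 and -0.13, and in EPZ versus DMSO they were -0.04 over 10 genes and -0.01 over 27. In K56A versus WT, 9 of the 10 with an element were above 0 and 11 of the 25 without one, with medians of 0.03 and 0.00. None of the 10 passed in any comparison. Of the 6 genes whose windows are printed, HSPA5, HSP90B1 and XBP1 were above 0 against EV in both lines, CALR in K56A alone, and HERPUD1 and SDF2L1 in neither, though HSPA5 in WT gave -0.0029 with median ratio scaling and -0.0069 with totals without mitochondrial genes. No element was matched in MANF, TMEM33 or DDOST, and no promoter of SPCS1 was searched.

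Genes of the same pathways outside the list were read in the same fits. Of 33 other genes of ER quality control, 2 fell in K56A versus EV and the same 2 in WT versus EV, FKBP2 and PPIB, both prolyl isomerases of the ER. That is 6.06% in each, against 0.597% and 0.458% of all genes called lower. FKBP2 averaged 75.3 FPKM in K56A and 77.4 FPKM in WT, against 95.3 FPKM in EV (adjusted p = 0.0189 and 0.0346). PPIB averaged 772 FPKM in K56A and 777 FPKM in WT, against 907 FPKM in EV (adjusted p = 0.0269 and 0.0379). Of 19 other genes of targeting, translocation and glycosylation tested, 3 fell in K56A versus EV, the oligosaccharyltransferase subunits KRTCAP2 (-0.26 ± 0.04), DAD1 (-0.24 ± 0.04) and MAGT1 (-0.39 ± 0.06), and KRTCAP2 alone in WT versus EV (-0.26 ± 0.04, adjusted p = 0.0352). These calls are 15.8% and 5.26% of the 19, against 0.597% and 0.458% of all genes called lower. No gene of either list rose. Of 6 tested genes of the ATF4 branch downstream of EIF2AK3, none passed against EV in either line. K56A lay wholly above EV for 4 of the 6 (66.7%, against 27.6% of all genes) and wholly below for none (against 17.9%). In K56A versus EV, 3 of the 6 had an unadjusted p under 0.05 by limma, against 15.1% of all genes. In WT versus EV, 2 of the 6 lay wholly above (against 22.6%) and 2 wholly below (against 20.9%). None of the 6 had an unadjusted p under 0.05 there. DDIT3, which encodes the stress factor CHOP, averaged 18.8 FPKM in K56A, against 15.3 FPKM in EV (0.29 ± 0.09, adjusted p = 0.203), and TRIB3, one of its targets, averaged 10.4 FPKM in K56A and 8.96 FPKM in EV. In K56A versus WT none of the 3 lists had a gene that passed, and WFS1, an ER membrane protein, had the smallest p, with 20.2 FPKM in K56A and 16.9 FPKM in WT (0.25 ± 0.07, adjusted p = 0.202). In EPZ versus DMSO none of the 3 lists had a gene that passed, and ASNS, an ATF4 target, had the smallest p of them, with 132 FPKM in EPZ and 105 FPKM in DMSO (0.33 ± 0.10, adjusted p = 0.756). The other 6 of the 7 ATF4 branch genes tested there were below 0, for a list median of -0.12, with CHAC1 at 7.99 FPKM in EPZ and 10.5 FPKM in DMSO (-0.36 ± 0.18, adjusted p = 0.756).

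The authors' deposited tables give calls per transcript. For transcripts of the ER genes, the authors' deposited table of K56A versus EV called 21 of 324 lower (6.48%, against 1.91% of all transcripts) and 5 higher (1.54%, against 1.89%). The authors' deposited table of WT versus EV called 25 of 314 lower (7.96%, against 1.77%) and 11 higher (3.50%, against 1.56%). In the authors' deposited table of K56A versus EV, SPCS1-201 had a log2 fold change of -0.40 (adjusted p = 9.39e-08) and MANF-204 one of -0.38 (adjusted p = 9.47e-06). TMEM33-203 (-0.36, adjusted p = 4.77e-05 by DESeq2) and DDOST-201 (-0.22, adjusted p = 0.0435) were among the others called lower. In the authors' deposited table of WT versus EV, P4HB-201 had -0.29 (adjusted p = 2.05e-26). MANF-204 (-0.31, adjusted p = 0.00654 by DESeq2), TMEM33-203 (-0.34, adjusted p = 0.000182) and DDOST-201 (-0.34, adjusted p = 0.000111) were also called lower. The authors' calls for MANF, TMEM33 and DDOST thus stood in both comparisons. Of the transcripts called there, 4 of 26 in K56A versus EV and 12 of 36 in WT versus EV were listed at 0 in both libraries of a group. The authors' deposited table of the inhibitor called 2 of 282 higher (0.709%, against 0.639%) and 2 lower (0.709%, against 0.556%), and all 4 were listed at 0 in both libraries of a group.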

How the data were processed

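The authors deposited 3 tables of 4 libraries, with an FPKM for each transcript, a value scaled by transcript length and by the library's total. EPZ and DMSO share a table, and EV stands in those of WT and of K56A. Libraries were made from 150 ng of total RNA with a TruSeq mRNA kit, per the labels. Trim Galore 0.6.6, STAR 2.7.1a, RSEM 1.3.3, DESeq2 1.32.0 and build GRCh38 are named, without roles, in the submitters' processing notes. Neither annotation release nor strand setting is given in the sources used here, and in GENCODE release 29 exons of 21 of the 41 genes overlap a gene on the other strand. The deposited log2 fold changes and p-values per transcript came from edgeR (inhibitor) and DESeq2 (knockdown), per the file headers, and only describe the authors' calls. Another 4 columns were unused.

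FPKM were summed per gene. K56A libraries were multiplied by 1.0007, the mean ratio of the EV values in the 2 knockdown tables. For K56A, WT and EV only the 69086 transcripts in both tables were summed, and 2284 of 13850 genes with over 5% of FPKM in transcripts of 1 table were left out. Genes of at least 1 FPKM in 2 libraries were tested on log2(FPKM + 0.5), which understates changes of low genes, with limma 3.58.1 (R 4.3.3), an intensity trend and Benjamini-Hochberg adjustment at 0.05. The procedure was run on simulated data whose changes were larger than those of the ER genes with all libraries. Its power for changes as small as theirs was not tested. Plots used Python 3.11.15 and matplotlib 3.10.9. Depth is unknown: ratios of low values place libraries at 1.00 to 1.29 times DMSO replicate 1 and 0.868 to 1.21 times EV replicate 1.

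The genes, their lists and the wider lists were chosen with earlier results of these data known. Every gene of the list may be named; values in all libraries are given for those that passed, for sensors, for HSPA5, HSP90B1, DNAJB9, HERPUD1, SDF2L1, SEC61A1 and RPN1, and for the smallest p of each role and comparison. OSTC, SEC61B, SSR1 to SSR4, STT3A and TRAM1, and the transcripts and overlapping genes named, were picked after their values were seen. Alternatives were pseudocount, filter, trend, scaling, replicate block, transcripts summed, table used and each library left out. Replicates 1 and 2 carry no stated pairing, so the block stands among the alternatives.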

Additional observations from a re-analysis of the deposited data

How the results depend on the processing

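Over the 41 single ER genes, 2327 values under an alternative kept their direction and side of the threshold, 40 lost the threshold and 28 gained it. Another 87 changed sign, 61 of them with a library left out, and 0 of these passed the threshold as reported or under the alternative. With protein coding transcripts only, the sign changed in EPZ versus DMSO for ATF6 (0.18), CRELD2 (0.064), HERPUD1 (0.034), PDIA3 (-0.11) and TMEM33 (0.072), in WT versus EV for STT3A (0.022), in K56A versus EV for ERN1 (-0.050) and PDIA3 (0.041), and in K56A versus WT for SPCS2 (0.065). With median ratio scaling it changed for HSPA5 in WT versus EV (-0.0029) and for CRELD2 (-0.0007) and STT3A (-0.017) in K56A versus EV. With totals without mitochondrial genome genes it changed for CANX in EPZ versus DMSO (0.011), HSPA5 in WT versus EV (-0.0069) and STT3A in K56A versus EV (-0.013). The cause of these changes was not tested. The count of ER genes lower in WT versus EV, 1 as reported, was 6 with a minimum of 5 FPKM, 4 with totals without mitochondrial genome genes and 2 with protein coding transcripts only. It was 0 without a filter, 0 without the intensity trend, 0 with only the 4 libraries compared and 0 in the table of WT alone. In the order given, genes lower over all tested were 122 of 8506, 87 of 11567 and 30 of 9675. They were then 33 of 14246, 0 of 11566, 8 of 11412 and 7 of 13729, against 53 of 11566 as reported. The count lower in K56A versus EV, 3 as reported, was 6 with a minimum of 5 FPKM, 6 with median ratio scaling and 6 with totals without mitochondrial genome genes, and 0 without the intensity trend, 0 with only the 4 libraries compared and 0 in the table of K56A alone. The last 2 of these fits have fewer libraries. In the order given, genes lower over all tested were 132 of 8506, 94 of 11566 and 104 of 11567. They were then 2 of 11566, 19 of 11430 and 17 of 13782, against 69 of 11566 as reported. With median ratio scaling or mitochondrial genes removed, SSR1, SPCS2 and SPCS3 joined MANF, SPCS1 and TMEM33. Median log2 fold changes stayed on the same side of 0 in WT versus EV (-0.15 with protein coding transcripts only) and in K56A versus EV (-0.10 with median ratio scaling, -0.093 without mitochondrial genome genes, -0.060 in its own table). In EPZ versus DMSO the median was 0.034 with protein coding transcripts only, and in K56A versus WT it was 0.0023 with median ratio scaling. No scaling moved the median of all genes by 0.1 or more.

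Leaving out a library gave 0 to 5 genes higher and a median of -0.016 to 0.024 in EPZ versus DMSO. It gave 0 genes lower in every case and a median of -0.15 to -0.11 in WT versus EV, 0 to 3 genes lower and a median of -0.085 to -0.029 in K56A versus EV, and a median of 0.0076 to 0.036 in K56A versus WT. In K56A versus EV, calls were made only without EV replicate 2 (SPCS1, SPCS3 and TMEM33). With the replicate number as a block, 0 ER genes passed in EPZ versus DMSO and in K56A versus WT, 1 was lower in WT versus EV (DDOST) and 3 in K56A versus EV (MANF, SPCS1 and SPCS2, with TMEM33 lost). Deviations of same-numbered libraries had r = 0.336 across genes in EPZ and DMSO and -0.01 to 0.01 between knockdown lines. The depth of the libraries is unknown, so no value has a counting interval.

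Leaving out a library took these genes of the text across 0. In EPZ versus DMSO the log2 fold change ran from -0.068 to 0.0015 for CALR, -0.043 to 0.033 for CANX, -0.15 to 0.070 for CRELD2, -0.13 to 0.32 for DNAJB9 and -0.062 to 0.095 for MANF. It ran from -0.081 to 0.43 for OSTC, -0.14 to 0.024 for P4HB, -0.028 to 0.18 for SEL1L, -0.20 to 0.017 for SYVN1 and -0.18 to 0.063 for TMEM33. In K56A versus EV it ran from -0.0041 to 0.066 for CALR, -0.012 to 0.052 for ERN1, -0.042 to 0.029 for P4HB, -0.16 to 0.0094 for SDF2L1, -0.0011 to 0.0099 for STT3A and -0.081 to 0.021 for SYVN1. In WT versus EV it ran from -0.036 to 0.021 for CANX, -0.024 to 0.029 for HSPA5 and -0.061 to 0.028 for SEC61B. In K56A versus WT it ran from -0.034 to 0.0060 for DNAJB9, -0.050 to 0.037 for EDEM1, -0.086 to 0.15 for HERPUD1 and -0.077 to 0.0011 for HSP90B1. It also ran from -0.0002 to 0.045 for PDIA6, -0.089 to 0.066 for SEL1L, -0.066 to 0.062 for SPCS2 and -0.029 to 0.073 for XBP1.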
